A study of Mus musculus with 3 samples.

Results

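The 7 adrenergic receptor genes described here are 3 of the alpha-1 type (Adra1a, Adra1b and Adra1d), 3 of the alpha-2 type (Adra2a, Adra2b and Adra2c) and the beta-1 gene Adrb1. They were chosen by symbol, as rows of the count tables, and are 7 of 32531 rows that name a gene. Other beta receptor genes were not analysed here. RNA was taken by translating ribosome affinity purification (TRAP), in which an antibody to a green fluorescent tag on the ribosomal protein L10a pulls down ribosomes together with the messenger RNA they carry. The 3 libraries form 1 group of immunopurified cortical RNA from adult, untreated Kcnip2-EGFP/Rpl10a mice (line NIDA115) on the C57BL/6J strain. The tag is expressed under the regulatory sequences of Kcnip2, so the cells sampled are those that use the transgene, in a single mouse line. The labels do not give sex, exact age or pooling, nor do they say that the replicates came from separate mice. Every edgeR p-value thus rests on 3 libraries whose spread may be technical, and on a spread estimated partly from other genes. No whole-cortex input, unbound fraction or control pull-down was analysed here, so the values are levels in the immunoprecipitate and not enrichments.

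Adrenergic receptors are G protein-coupled receptors for noradrenaline and adrenaline, and in the cortex their ligand comes mainly from the axons of locus coeruleus neurons. Alpha-1 receptors couple to Gq, which activates phospholipase C and raises intracellular calcium. Alpha-2 receptors couple to Gi/o, which lowers cyclic AMP, opens inward rectifier potassium channels and, on noradrenergic axons, acts as an autoreceptor brake on release. Beta-1 receptors couple to Gs and raise cyclic AMP.

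The libraries held 11602248, 13635132 and 14174384 counts in genes. Levels are given as CPM, read counts divided by the library's TMM-scaled total from edgeR. On this scale 3 counts, the limit that a count of 0 allows, stood at 0.256, 0.222 and 0.213 CPM in replicates 1, 2 and 3, for counting error only. Detection means 1 CPM or above in each of the 3 libraries, which 37.3% of all rows that name a gene met. Marker genes of cell types were summed: all 7 pan-neuronal genes were detected and summed to between 35780 and 41054 CPM per library. Most of this was Snap25, at 31380 to 36012 CPM. Sums over lists of unequal size do not rank cell types. The sums ranged over 6837 to 9309 CPM for 6 glutamatergic genes (5 detected), 1605 to 1843 CPM for 7 GABAergic genes (7 detected) and 798 to 1125 CPM for 5 somatostatin and parvalbumin interneuron genes (5 detected), of which Sst varied between libraries (edgeR adjusted p = 0.0284). Most of the glutamatergic sum was Camk2a, at 5506 to 7377 CPM. The 10 astrocyte genes, all detected, summed to between 2570 and 4141 CPM. The corresponding ranges were 485 to 664 CPM for 7 oligodendrocyte genes (6 detected), 59.8 to 85.5 CPM for 5 precursor genes (5 detected), 40.2 to 61.4 CPM for 7 microglial genes (4 detected), 6.87 to 13.1 CPM for 6 endothelial genes (2 detected) and 12.9 to 24.1 CPM for 5 mural genes (4 detected). In single-group bulk RNA of this kind, fewer cells of a type and less RNA per cell cannot be told apart, and neither can a low level in tagged cells and carry-over from untagged ones.

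Reads were assigned to receptor genes that are related in sequence. The stretch of coding sequence printed here runs from a codon in the third transmembrane helix to 5 codons past the aspartate-arginine-tyrosine motif at the inner end of that helix. It is shown for the pair of genes highest per kilobase, for the alpha-2 pair that shares the longest identical run, and for the beta-1 gene. The capitals mark, first, the aspartate codon 17 codons before the motif, whose side chain is known to bind the amine of catecholamines, and second, the 3 codons of the motif, which take part in G protein coupling.
Adra1a: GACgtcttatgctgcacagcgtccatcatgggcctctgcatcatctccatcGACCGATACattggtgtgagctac
Adra1d: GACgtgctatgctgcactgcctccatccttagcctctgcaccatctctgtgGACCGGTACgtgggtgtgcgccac
Adra2a: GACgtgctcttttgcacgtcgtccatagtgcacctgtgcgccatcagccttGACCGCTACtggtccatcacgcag
Adra2c: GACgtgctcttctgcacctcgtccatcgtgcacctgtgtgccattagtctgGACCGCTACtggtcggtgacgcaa
Adrb1: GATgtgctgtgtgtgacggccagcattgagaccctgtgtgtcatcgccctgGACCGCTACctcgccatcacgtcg
These sequences are the coding strand, 5′ to 3′, of the GENCODE M21 transcripts with the longest coding sequence (first by name where tied). On mm10 they lie at chr14:66637893-66637967 (plus strand), chr2:131561587-131561661 (minus strand), chr19:54046596-54046670 (plus strand), chr5:35280276-35280350 (plus strand) and chr19:56722783-56722857 (plus strand) in the order printed. All 7 genes carry an aspartate codon at the first of these positions, and the motif was found once in frame in each coding sequence. Of the 75 bases, Adra2a and Adra2c share 85.3%, Adra1a and Adra1d 78.7%, and Adra1a and Adrb1 54.7%. Over whole coding sequences, the longest identical run between any pair of the 7 genes was 26 bases, for Adra2a and Adra2c. The read length was not stated, so how often a read could match more than 1 receptor gene was not tested.

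Of the 7 receptor genes 6 were detected, and Adra2b was not. Of all rows that name a gene, 37.3% met the same criterion, and of those with at least 1 read, 64.9%. The same 6 genes had enough reads for the tests (filterByExpr in edgeR, with a minimum of 10 counts).

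Among the alpha-1 genes, Adra1a (chromosome 14, 66635251 to 66771168, plus strand, mm10, up to 4 exons in a transcript) had 65.7, 55.9 and 62.4 CPM in replicates 1, 2 and 3. Its mean was 61.3 ± 4.996 CPM (SD, n = 3) from 2409 reads in all. The values stayed close together, with the highest library 1.18 times the lowest. Adra1d (chromosome 2, 131545850 to 131562283, minus strand, 2 exons) had 11.4, 15.4 and 13.9 CPM, a mean of 13.6 ± 1.99 CPM. Its lowest value was in replicate 1. Exons of the annotated gene Gm14285 overlap Adra1d on the opposite strand, and since the handling of strand is not stated, reads of this pair cannot be separated. Adra1b (chromosome 11, 43774606 to 43901210, minus strand, up to 5 exons) had 10.4, 9.75 and 13.2 CPM, a mean of 11.1 ± 1.82 CPM, and was highest in replicate 3.

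Among the alpha-2 genes, Adra2c (chromosome 5, 35278319 to 35281763, plus strand, a single exon) had 11.3, 7.24 and 8.29 CPM, a mean of 8.93 ± 2.08 CPM. It was highest in replicate 1, the reverse of Adra2a. Adra2a (chromosome 19, 54044151 to 54048982, plus strand, up to 2 exons), the main autoreceptor gene of noradrenergic neurons and a postsynaptic receptor of the prefrontal cortex, had 3.07, 5.69 and 4.11 CPM, from 36, 77 and 58 reads. Its mean was 4.29 ± 1.32 CPM, and the highest library was 1.85 times the lowest. Adra2b (chromosome 2, 127363208 to 127367221, plus strand, a single exon) had 2, 15 and 0 reads. These correspond to 0.170 and 1.11 CPM in replicates 1 and 2 and to an upper limit of 0.213 CPM in replicate 3. Of its 17 reads, 15 thus came from replicate 2, and the 95% Poisson interval there was 0.620 to 1.83 CPM.

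The beta-1 gene Adrb1 (chromosome 19, 56722199 to 56733113, plus strand, up to 3 exons) had 13.2, 15.2 and 13.5 CPM. Its mean was 13.99 ± 1.07 CPM, and its coefficient of variation, 7.68%, was the lowest of the 7 genes. Counting error alone would give 7.40% at this level.

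**Figure D1:**
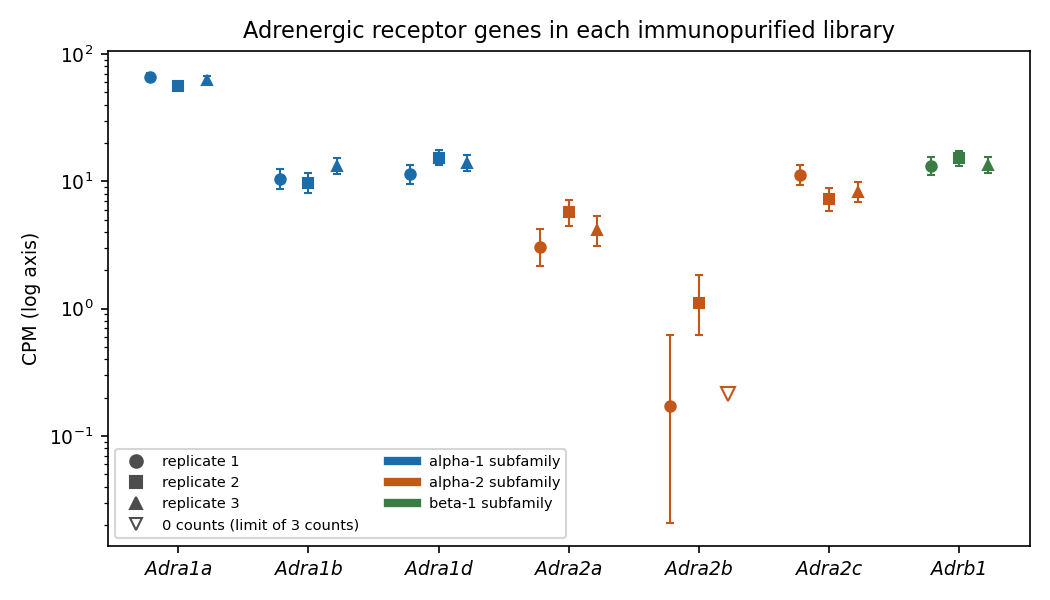
CPM (log axis) of each receptor gene in the 3 immunopurified libraries, coloured by subfamily. Bars are exact 95% Poisson intervals, which cover counting error only, and the open triangle is the limit of 3 counts for the library with 0 Adra2b reads. Adra1a lies between 55.9 and 65.7 CPM, while Adra2b reaches 1.11 CPM in replicate 2 only.

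Because longer transcripts yield more reads, levels of different genes were set side by side as CPM per kilobase of union exon length, the length covered by all annotated exons of a gene. On this scale Adra1d was at 7.14 ± 1.05, Adra1a at 7.03 ± 0.572, Adrb1 at 4.14 ± 0.318, Adra1b at 3.28 ± 0.539, Adra2c at 2.59 ± 0.604, Adra2a at 0.887 ± 0.273 and Adra2b at 0.106 ± 0.149 CPM per kilobase (SD, n = 3). The alpha-1 pair was thus on top, the beta-1 gene next, and Adra2a and Adra2b at the bottom in all 3 libraries. Of the 12141 genes past the filter with an exon length, whose median was 4.50 CPM per kilobase, 38.1% were higher than Adra1d, 52.4% than Adrb1 and 86.8% than Adra2a.

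Whether neighbours in this order differed was tested with edgeR, by fitting every gene's ratio to a receptor gene within each library. The fit takes the receptor gene's counts as fixed and estimates the spread partly from all other genes. Its p-values therefore do not measure the spread of a pair's ratios over the 3 libraries alone. Adjusted p-values are Benjamini-Hochberg over all 12140 genes of that fit, and an exact sign-flip test over 3 libraries cannot go below p = 0.25. Of the 15 pairs among the 6 receptor genes tested, 12 differed. This share is near the background, since the share of all genes that differed was 88.6% against Adra1a, 85.7% against Adra1d, 86.4% against Adrb1, 81.1% against Adra1b, 79.4% against Adra2c and 82.3% against Adra2a.

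Adra1a and Adra1d were not separated by the test (log2 Adra1a over Adra1d 0.01, 95% interval -0.32 to 0.34, edgeR adjusted p = 0.962, Adra1a higher in 1 of 3 libraries). Adra1d exceeded Adrb1 in 3 of 3 libraries (log2 ratio 0.78, interval 0.32 to 1.23, edgeR adjusted p = 0.00232). Leaving out replicate 3 ended the call (edgeR adjusted p = 0.0869), and with counts divided by coding length, or not divided, the direction turned (log2 ratio -0.33 and -0.056). Adra1a exceeded Adrb1 in 3 of 3 libraries as well (log2 ratio 0.75, interval 0.38 to 1.13, edgeR adjusted p = 0.000497), by 2.12 with coding length and 1.58 with the longest transcript.

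Below these, Adra1b was not separated from Adrb1 (log2 Adra1b over Adrb1 -0.32, interval -0.74 to 0.09, edgeR adjusted p = 0.157), although it was lower in 3 of 3 libraries. With other divisors this pair was called, at -0.47 with coding length (edgeR adjusted p = 0.0407) and -0.50 with the longest transcript (edgeR adjusted p = 0.0306). Nor was Adra1b separated from Adra2c (log2 Adra1b over Adra2c 0.32, interval -0.23 to 0.87, edgeR adjusted p = 0.296, higher in 2 of 3 libraries). Adra2c lay below Adrb1 in 3 of 3 libraries (log2 Adra2c over Adrb1 -0.66, interval -1.12 to -0.20, edgeR adjusted p = 0.00946), a call that ended on leaving out replicate 2 (adjusted p = 0.134) or replicate 3 (adjusted p = 0.142).

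Per kilobase of union exon, the 4 largest gaps among the 15 pairs involved Adra2a; with coding length or no divisor, 1 of the 4 largest did, and the other 3 were between Adra1a and Adra2c, Adra1b and Adra1d. Within the alpha-2 subfamily, Adra2a was below Adra2c in 3 of 3 libraries (log2 Adra2a over Adra2c -1.44, interval -2.16 to -0.73, edgeR adjusted p = 0.00078, and 0.0618 without replicate 3). Its distance to the alpha-1 genes was greater: Adra1d exceeded it by 3.03 on the log2 scale (interval 2.36 to 3.69, edgeR adjusted p = 1.11e-11) and Adra1a by 2.96 (interval 2.34 to 3.57, edgeR adjusted p = 3.55e-10). With coding length and with no divisor, Adra1d over Adra2a was smaller, at 1.41 and 1.68, and Adra1a over Adra2a larger, at 3.81 under both, and both pairs were still called. Adra2a also stood below Adra1b and Adrb1 in 3 of 3 libraries, with Adra1b over Adra2a at a log2 ratio of 1.85 (1.19 with coding length) and Adra2a over Adrb1 at -2.23. With no count filter, Adra2b could be tested and was the lowest of the 7. Its log2 ratio to Adra2c was -4.41 (interval -6.38 to -2.44, edgeR adjusted p = 0.00267), and Adra2a over Adra2b was 3.27 (interval 1.11 to 5.42, edgeR adjusted p = 0.027). These ratios rest on 2, 15 and 0 reads of Adra2b. They were fitted in a single direction, since a gene with a count of 0 could not be the reference.

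**Figure D2:**
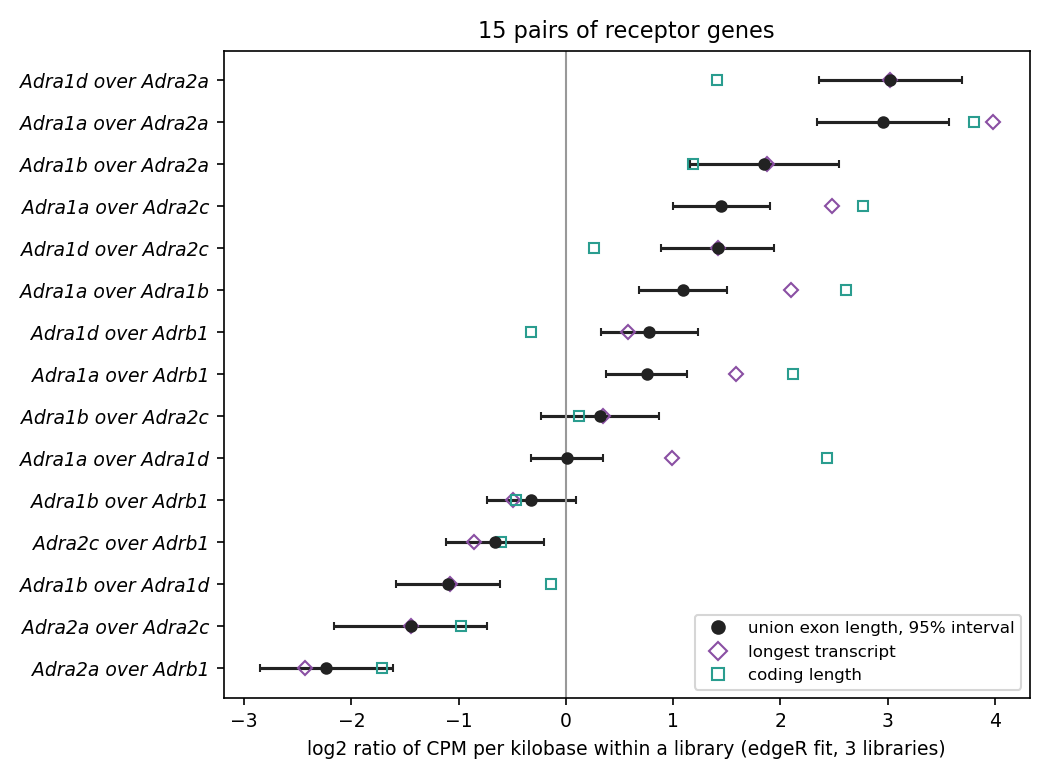
Log2 ratios of CPM per kilobase within a library for the 15 pairs of receptor genes tested, from the edgeR fit over 3 libraries. Black points with 95% intervals use union exon length, and open symbols use the longest transcript or the coding length. The black intervals of Adra1a over Adra1d, Adra1b over Adra2c and Adra1b over Adrb1 include 0, and Adra1a over Adra1d moves furthest between divisors, to 2.43 with coding length.

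The rank of Adra1a depended on the length it was divided by. Its annotated exons cover 8728 bases, against 4282 bases in its longest transcript and 1398 coding bases, whereas the 1899 exonic bases of Adra1d are the same as its single transcript. Divided by the longest transcript, Adra1a was at 14.3 ± 1.17 CPM per kilobase and exceeded Adra1d by 0.99 on the log2 scale (edgeR adjusted p = 1.66e-05). Divided by coding length, Adra1a was at 43.9 ± 3.57 CPM per kilobase, Adrb1 at 10.004 ± 0.769 and Adra1d at 8.04 ± 1.18, and Adra1a exceeded Adra1d by 2.43 on the log2 scale (edgeR adjusted p = 1.10e-15). Under both of these divisors, and with undivided counts, Adra1a ranked first in all 3 libraries. Which transcripts were translated in these cells is not given by counts per gene, so these data leave the rank of Adra1a as either equal to Adra1d within error or first. Adra2a and Adra2b ranked sixth and last under every divisor in every library.

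**Figure D3:**
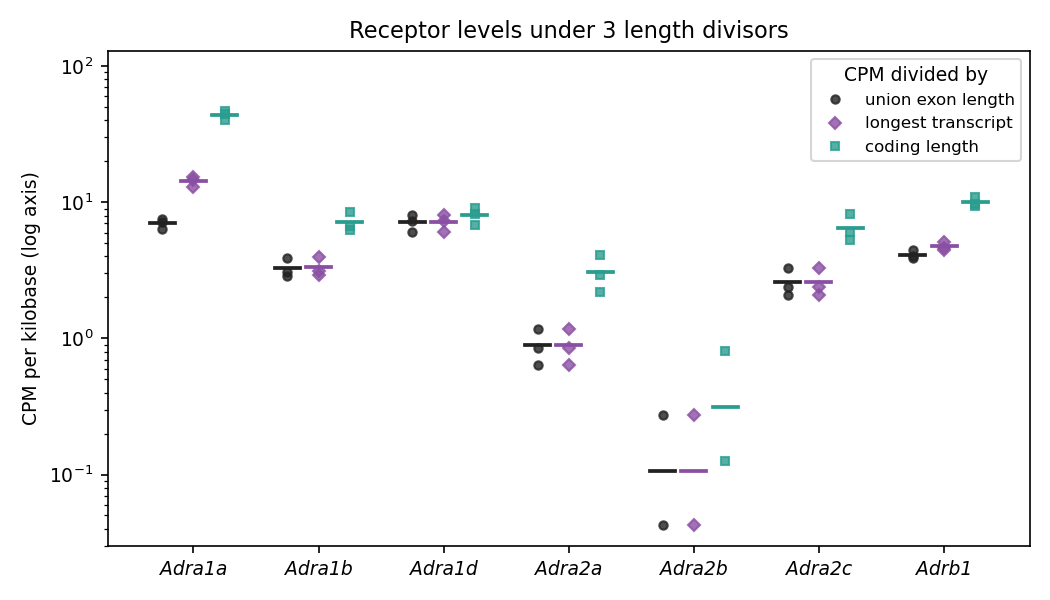
CPM per kilobase (log axis) of the 7 receptor genes, with counts divided by union exon length, by the longest transcript or by coding length. Points are libraries and lines are means over 3 libraries; the replicate with 0 Adra2b reads has no point on the log axis. Adra1a moves between 7.03 and 43.9 CPM per kilobase and Adra1d between 7.14 and 8.04.

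Summed per kilobase of union exon, the alpha-1 genes supplied most of the receptor level in every library. Their share was 67.9%, 68.3% and 71.7% in replicates 1, 2 and 3, a mean of 69.3% ± 2.06 (SD, n = 3). The alpha-2 genes supplied 16.1%, 13.98% and 12.7% (14.3% ± 1.72) and Adrb1 15.97%, 17.7% and 15.6% (16.4% ± 1.11). The alpha-1 share was 74.9% with the longest transcript and 74.8% with coding length. Adra1a alone made up 28.0% ± 2.79 per kilobase of union exon and 55.5% ± 3.06 per kilobase of coding sequence. The order of alpha-2 and beta-1 was not the same in all 3 libraries.

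No receptor gene was called as varying between the libraries more than genes of its level. None of the 6 passed edgeR's quasi-dispersion test (adjusted p = 0.996 for each), and of all 12559 genes tested 11, or 0.0876%, passed. At an unadjusted p under 0.05 there were 0 of the 6 receptor genes and 718 of the 12559 genes, so a count of 0 is near the background. Adra2c and Adra2a had the widest spread of the 6, with coefficients of variation of 23.3% and 30.7%, against 9.27% and 13.4% from counting alone. Adra1a, Adra1b and Adra1d also exceeded counting error, at 8.14%, 16.4% and 14.7% against 3.53%, 8.31% and 7.52%. Adra2c and Adra2a spread in opposite directions, as Adra2c was highest and Adra2a lowest in replicate 1. The summed astrocyte markers were also lowest in replicate 1, at 2570, 4141 and 3476 CPM in replicates 1, 2 and 3. Most of this sum was Slc1a2, Glul and Aldoc. Gfap, at 14.8, 11.8 and 11.5 CPM, and Aldh1l1, at 9.80, 5.46 and 7.08 CPM, were highest in replicate 1. The summed glutamatergic markers were lowest in replicate 1 too, at 6837, 8410 and 9309 CPM. The nuclear RNAs Malat1, Meg3, Snhg11 and Neat1 summed to 10624, 3518 and 2417 CPM. Of these, Malat1, Meg3 and Snhg11 varied between libraries (edgeR adjusted p = 3.12e-08, 0.0202 and 2.53e-08). No astrocyte, glutamatergic or GABAergic marker was called as varying. The pan-neuronal, somatostatin and parvalbumin interneuron, precursor, microglial and mural sums were also lowest in replicate 1, and the oligodendrocyte and endothelial sums in replicate 3. Of the somatostatin and parvalbumin interneuron genes, only Sst was lowest in replicate 1, at 429, 551 and 895 CPM. Pvalb, at 195, 117 and 99.9 CPM, and Tac1, Crhbp and Syt2 were highest in replicate 1. The GABAergic markers were highest in replicate 1, at 1843, 1605 and 1650 CPM. The part of these markers and nuclear RNAs in the receptor values was not tested. Beside the 15 reads of Adra2b in replicate 2, the thalamic gene Prkcd had 26, 99 and 36 reads, and the 7 striatal markers (5 detected) summed to 259.8, 391.6 and 274.3 CPM. Their part in the Adra2b reads was not tested. The sum of the 6 thalamic markers (4 detected, with Gbx2 at 0 counts), most of it from Rora, was 304.4, 294.1 and 301.1 CPM.

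Of 6 genes for noradrenaline synthesis and vesicular loading, 2 were detected, a share near the 37.3% of all rows that name a gene. These were Slc18a2, the vesicular monoamine transporter, at 1.68 ± 0.275 CPM per kilobase, and Th, which makes the catecholamine precursor, at 1.57 ± 0.807 CPM per kilobase. Pnmt, the adrenaline-forming enzyme, came next at 0.130 ± 0.109 CPM per kilobase from 1, 4 and 1 reads, and Slc18a1 was lowest at 0.0144 ± 0.0137 CPM per kilobase. Dbh, which converts dopamine to noradrenaline, had 0, 2 and 2 reads. The noradrenaline transporter gene Slc6a2 and the noradrenergic identity factor gene Phox2a had no reads in any library, where a count of 0 leaves room for at most 0.213 to 0.256 CPM. Defining genes of locus coeruleus neurons were therefore at or near 0, while 2 of the 6 noradrenergic markers, Th and Slc18a2, were detected.

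Detection held for 37.3% of all rows that name a gene and 64.9% of those with at least 1 read. Among 9 genes of catecholamine uptake and breakdown, 6 were detected. One of these was the monoamine transporter gene Slc29a4, with 52, 65 and 67 reads and 1.63 ± 0.0694 CPM per kilobase. Slc29a4, Slc18a2 and Th thus had higher means per kilobase of union exon than Adra2a, differences that were not tested. In undivided CPM the order changed, with Slc18a2 at 8.80, Slc29a4 at 4.66, Adra2a at 4.29 and Th at 3.70. Maob, a monoamine oxidase, was at 4.78 ± 0.931 CPM per kilobase and Akr1b3, an aldose reductase, at 3.73 ± 0.125.

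The signalling arms to which the receptors couple had higher list medians than the receptors themselves, at 19.98, 11.8 and 24.8 CPM per kilobase for Gq, Gi/o and Gs genes, beside 3.28 for the 7 receptor genes and 4.50 for all genes past the filter. For the detected counts of these arms and of the regulators, the background was 37.3% of all rows that name a gene and 64.9% of those with reads. Of 13 Gq genes, 11 were detected, among them the protein kinase C gene Prkcb, the highest, at 527 ± 40.7 CPM per kilobase and the phospholipase gene Plcb1 at 60.2 ± 4.68. The inositol trisphosphate receptor gene Itpr3 was lowest at 0.0321 ± 0.0278 CPM per kilobase. All 12 Gi/o genes were detected, led by the G protein alpha subunits Gnai1 at 317 ± 14.1, Gnao1 at 209 ± 16.3 and Gnaz at 36.2 ± 0.906 CPM per kilobase. The lowest was Hcn4 at 0.555 ± 0.0206, one of the pacemaker channel genes placed here because alpha-2 receptors lower their cyclic AMP drive.

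Of 20 Gs genes, 19 were detected. Gnas, the stimulatory alpha subunit, was at 277 ± 22.4 CPM per kilobase, and the protein kinase A subunit genes Prkar1a and Prkaca were at 186 ± 19.9 and 146 ± 4.27. The adenylyl cyclase gene Adcy7 was lowest, at 0.309 ± 0.201, and was the member not detected. All 13 genes for receptor kinases, arrestins and other regulators were detected. Rgs4 and Rgs2, which speed GTP hydrolysis on G protein alpha subunits, were at 134 ± 20.1 and 51.8 ± 3.04 CPM per kilobase. Ppp1r9b, which encodes spinophilin, a binding partner of alpha-adrenergic receptors, was at 37.6 ± 4.74, and the receptor kinase gene Grk4 was lowest at 0.579 ± 0.0965. These lists were fixed by function with earlier results of these libraries known, and their differences from the receptor genes were not tested.

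**Figure D4:**
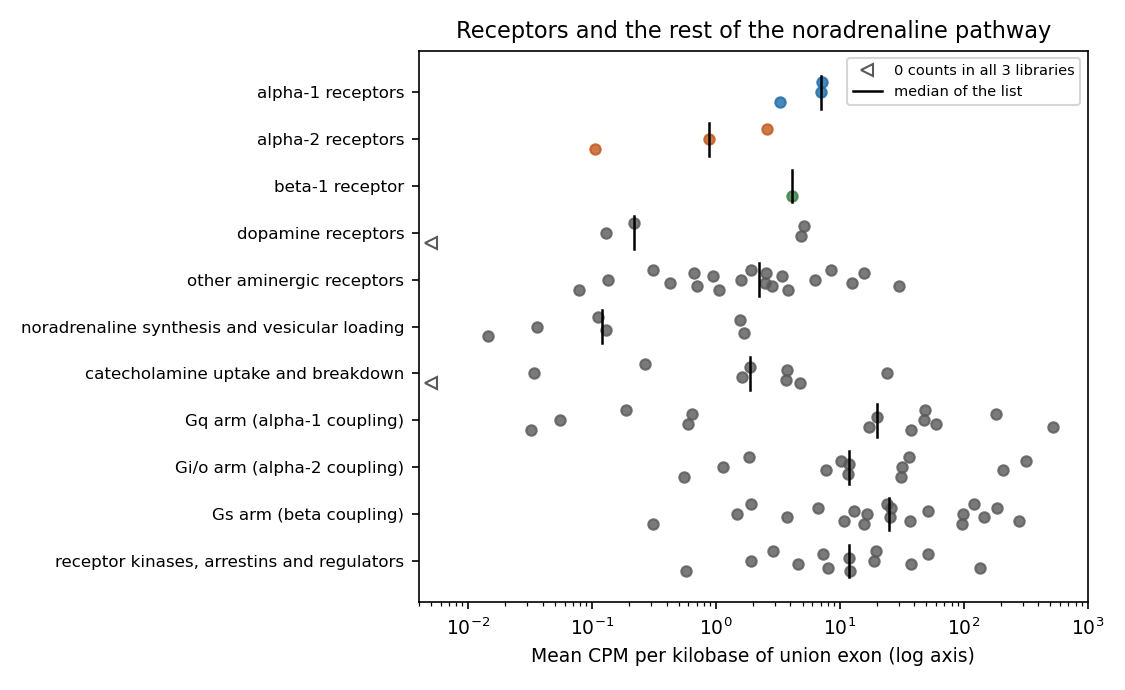
Mean CPM per kilobase of union exon (log axis) of each gene in the receptor lists and in the other lists of the noradrenaline pathway. Points are genes, black lines are list medians, and open triangles at the left edge are genes with 0 counts in all 3 libraries. The receptor genes lie between 0.106 and 7.14 CPM per kilobase, whereas the medians of the 3 signalling arms lie between 11.8 and 24.8.

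Per kilobase of union exon, the 25 other aminergic receptor genes spanned a wider range than the 7 adrenergic ones. A range tends to widen with the number of genes, so the difference was not read further. Of 5 dopamine receptor genes, Drd1 and Drd2 were detected, at 5.12 ± 0.644 and 4.85 ± 2.47 CPM per kilobase, Drd5 was at 0.219 ± 0.205, and Drd4 had no reads. Of 20 serotonin, muscarinic and histamine receptor genes, 15 were detected, led by the histamine autoreceptor gene Hrh3 at 29.99 ± 2.74 CPM per kilobase, then Htr5a at 15.7 ± 0.863 and Chrm1 at 12.5 ± 0.992. Htr2b was lowest at 0.0790 ± 0.0699 CPM per kilobase. These detected counts stand beside 37.3% of all rows that name a gene and 64.9% of those with at least 1 read.

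Each adrenergic gene was matched to the nearest of these 25 genes by the mean absolute difference in log2 CPM per kilobase over the 3 libraries. Only union exon length was used as divisor here. Adra1a was nearest to Htr2a, at a mean difference of 0.29. Adra1d was nearest to Chrm4 (0.22), Adrb1 and Adra1b to Chrm3 (0.12 and 0.24), and Adra2c to Chrm2 (0.07). Adra2a was nearest to Htr1b at 0.32, and Adra2b to Drd3 at 0.84, where both Adra2b and Drd3 had few reads. These matches are of level alone, over 3 libraries of 1 group.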

How the data were processed

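RNA from anti-EGFP immunoprecipitates of cortex was sequenced in 3 libraries. The deposited values are raw read counts per gene symbol, 1 table per library; STAR 2.0.0e, HTSeq and the mm10 build were used per the submitters' processing notes. Counting mode, strand handling and the authors' annotation release were not stated. The counter's special rows were left out: 61.9%, 67.6% and 70.7% of tallied reads fell in genes in replicates 1, 2 and 3. All pairs of libraries differed beyond sampling noise (chi-square per degree of freedom 12.2 to 28.4).

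Counts were scaled by TMM (edgeR 4.0.16, R 4.3.3). Exon lengths and coordinates were read from the GENCODE M21 annotation (GRCm38, which is mm10) and matched by symbol (23155 rows) or older symbol (727). The count filter kept 12559 genes, 12141 with a length. Gene ratios were tested with edgeR's quasi-likelihood F test of the intercept, with the second gene's count and both lengths as offset, taking the larger adjusted p of a pair's directions; limma 3.58.1 on log2 ratios and DESeq2 1.42.0 were alternatives. Variation between libraries used the quasi-dispersion over its trend. A gene passed at an adjusted p under 0.05. The tests were tried on simulated data first. Per-library ratios had 0.5 counts added, and log2 CPM used a prior count of 2. Poisson intervals cover counting error only.

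The members, lists and tests were chosen with earlier results of these data known. The rule for naming was all 7 receptor genes and, in each pathway list, the 3 genes highest per kilobase, the lowest, and any that varied; genes with no reads were named too, and each receptor gene's nearest other aminergic receptor gene. Prkcd, Rora and Dbh were named after their values were seen. Marker lists are given as sums, with the genes that varied. Some genes that the rule names are not reported here. Alternatives covered scaling, filter, detection threshold, length divisor, test and leaving out each replicate.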

Additional observations from a re-analysis of the deposited data

How the results depend on the processing

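No paired analysis was possible because the libraries form 1 group. The number of pairs called was 12 of 15 with RLE or total-count scaling, limma, DESeq2, non-robust moderation or no count filter; it was 10 with no length divisor, 11 with coding length, 14 with the longest transcript and 9 to 12 with 1 replicate left out. Scaling cancels in a ratio within a library. The 180 single-pair values under these alternatives thus include RLE and total-count values that could hardly differ from the main fit. Of the 180, 163 kept direction and call, 5 gained a call, 8 lost one with the direction kept and 4 changed sign. The sign changes were Adra1a over Adra1d with limma (log2 -0.018) and without replicate 1 (-0.19, within a range of -0.19 to 0.13 with 1 replicate left out), and Adra1d over Adrb1 with no length divisor (-0.056) and with coding length (-0.33). Adra1d over Adrb1 also lost its call in both of those settings. Shares moved with the divisor by more than their spread: with no divisor, coding length and the longest transcript, alpha-1 was 75.7%, 74.8% and 74.9%, alpha-2 was 12.01%, 12.5% and 10.8%, and beta-1 was 12.3%, 12.7% and 14.3%. Mean CPM of each receptor gene moved by less than its SD under RLE and total-count scaling and with any 1 replicate left out, but for Adra2b that SD exceeds the mean: its mean was 0.426 CPM, and 0.0852 CPM without replicate 2. At 0.5 CPM, at 1 CPM and with 1 replicate left out, 6 receptor genes were detected, and at 5 CPM 5 were. The genes that varied between libraries numbered 5 with non-robust moderation, 66 with no count filter and 4 to 9 with 1 replicate left out; no receptor gene was among them in any of these fits. Depth limits the alpha-2 genes most: Adra2b rests on 17 reads and Adra2a on 171.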

Other observations

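The receptor genes differ in base composition as well as in length. The coding sequence of Adra1a had the lowest GC content, 54.6%, and that of Adrb1 the highest, 68.7%, with Adra2b at 58.0%, Adra1b at 60.6%, Adra1d at 64.7%, Adra2a at 65.2% and Adra2c at 65.8%. The part of base composition in the levels was not tested.

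Among receptor regulators, levels were as follows for the main beta-adrenergic receptor kinase genes, whose difference was not tested. Grk2 was at 11.97 ± 1.58 CPM per kilobase and Grk3 at 8.05 ± 0.604 (SD, n = 3), and Grk6 and Grk5 were at 2.87 ± 0.0488 and 1.93 ± 0.636. The arrestin gene Arrb1 was at 19.7 ± 1.82 and Arrb2 at 7.31 ± 0.723. Of the scaffold genes whose products bind beta-1 receptors, Magi2 was at 18.9 ± 0.234, Dlg4 at 12.02 ± 1.61 and Gipc1 at 4.56 ± 0.735 CPM per kilobase. These genes were named after their values were seen.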
